A study of Mus musculus with 2 samples.

Results

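Longer, thinly covered stretches of RNA recovered with an antibody to ALKBH5 from mouse testis are described here. They were chosen by 2 measured values, a cluster length of at least 31 bases and fewer than 1000 reads in the ALKBH5 library. Clusters starting inside 10 loci proposed as sources of piRNA precursors were left out. Of 2964 listed clusters, 440 met this rule. Length, IP reads and the contrast of both libraries are therefore given as a description, with no test.

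The samples were 2 PAR-CLIP libraries from testis of ICR mice, an outbred strain, at 10 weeks of age. The mice had received 4-thiouridine, a photoreactive nucleoside that is built into new RNA, and the lysates were crosslinked at 365 nm. A rabbit polyclonal antibody to ALKBH5 was used for the immunoprecipitation (IP) of 1 library and nonspecific IgG for the other, each followed by RNase T1, which cleaves after G. The libraries were made with a small RNA protocol. How many mice were used, and whether tissue was pooled, is not given in the sources used here. With 1 library per group no value has a replicate. Intervals of ratios cover counting error only. Wilson intervals of shares treat clusters as independent draws, although neighbouring clusters may not be independent. The table names no genes, so the tissue could not be checked against markers. Positions are in the build NCBIM37, whose sequence was not used here.

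ALKBH5 is an RNA demethylase of the nucleus that acts on N6-methyladenosine, and male mice that lack it have impaired spermatogenesis. A PAR-CLIP cluster is a stretch of 1 strand covered by reads. A short cluster in a small RNA library often is a whole small RNA, whereas a longer one can join overlapping fragments of a longer transcript. Mouse centromeres lie at chromosome ends and are flanked by arrays of satellite repeats, which can be transcribed from either strand. Mitochondrial DNA is transcribed from both strands into long precursors. The plus strand of its reference carries the sense of both rRNAs and of all protein-coding genes except mt-Nd6.

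Solving the deposited z-scores for the library totals gave 31668845 IP and 31031345 IgG reads. Into the 440 longer clusters fell 48219 IP reads, or 0.152% of that library, and 25133 IgG reads, or 0.0810%. The ratio of these sums, scaled to the totals, was 1.88. No listed cluster had 1, 2 or 3 IgG reads, whereas 50 had 4 and 847 were listed at 0. Whether counts below 4 were set to 0 before deposit is not given in the sources used here. Folds against an IgG count listed as 0 were therefore computed against 3 reads per cluster and are given as "at least". They bound the unlisted IgG count only and leave out counting error. For a cluster with 130 IP reads, this fold was 42.5, with an exact binomial interval of 14.2 to 209. Intervals of sums with zeros set to 3 count the filled-in reads as observed, so their upper ends are no limits.

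Most of the longer clusters rested on few reads. Their IP reads ran from 11 to 999, with a median of 23.5 and quartiles of 13 and 94.25. Lengths ran from 31 to 640 bases, with a median of 67 and a sum of 38203. Coverage was thin, at a median of 33.3 IP reads per 100 bases. In the 1909 clusters under 31 bases that also had fewer than 1000 IP reads and lay outside the 10 loci, the same median was 420. Of the 440 clusters, 247 were on the plus and 193 on the minus strand.

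IgG was listed as 0 in 267 of the 440 longer clusters (60.7%, Wilson 95% interval 56.0 to 65.1%), against 28.6% of all listed clusters. These 267 had a median of 13 IP reads, and 181 of them had 15 or fewer. The other 173 had 4 to 841 IgG reads and a median of 134 IP reads. Their median scaled ratio was 1.94, with quartiles of 1.57 and 2.94. When scaled to the median ratio of all listed clusters, which was 1.79, it was 1.08. In all 173 the exact binomial 95% interval stayed above 1, as in 2083 of all 2117 listed clusters with IgG reads. Every listed cluster had a deposited p-value below 0.001. In 21 of the 173 (12.1%) the interval stayed above 2, against 12.6% of all listed clusters with IgG reads. With 1 read added to each count, 346 of the 440 (78.6%) reached a ratio of 2, against 57.0% of all listed clusters, and 283 (64.3%) a ratio of 4, against 34.6%. All 267 clusters at IgG 0 passed both limits by construction, since each had at least 11 IP reads. Against 3 IgG reads, those with 11 or 12 IP reads stood at 3.59-fold and 3.92-fold, below 4. The IP reads chose the 440 clusters, so nothing is read from the differences. In lysates of whole tissue, fewer cells of a type and less RNA per cell cannot be told apart.

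**Figure D1:**
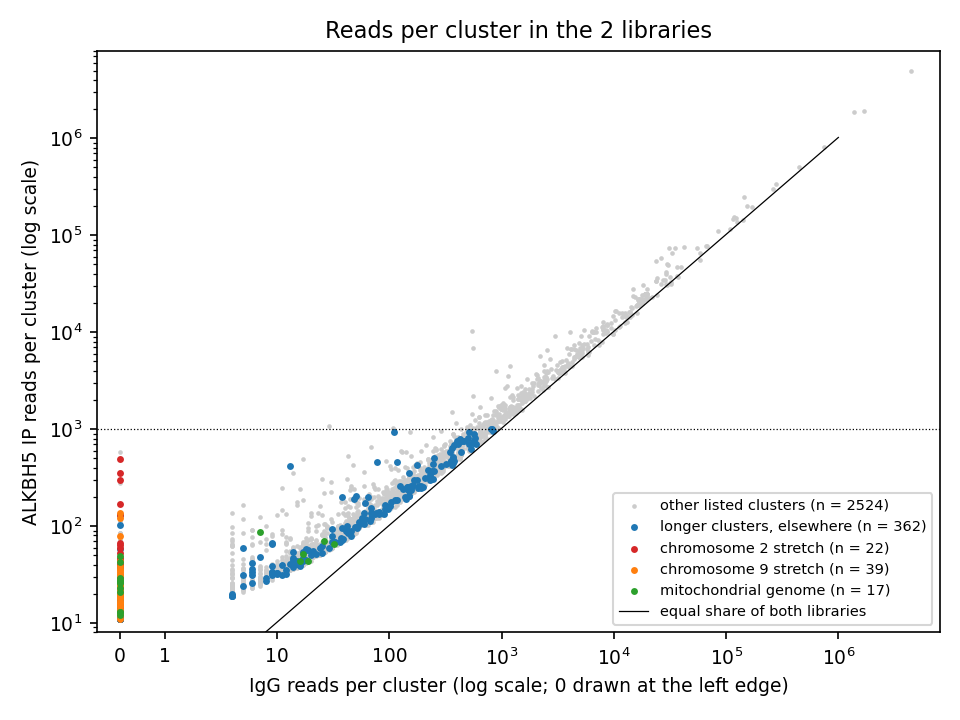
ALKBH5 IP reads (y axis, log scale) against IgG reads (x axis, log scale, 0 drawn at the left edge); each point is 1 listed cluster, the longer clusters are coloured, the diagonal is an equal share of both libraries and the dotted line is 1000 IP reads. The 267 longer clusters at IgG 0 reach from 11 to 493 IP reads.

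The share at IgG 0 moved with depth. At 11 to 19 IP reads, IgG was listed as 0 in 203 of 206 longer clusters and in 385 of 390 clusters under 31 bases. The lowest IP counts listed at IgG 0 were 11 on the plus strand and 12 on the minus strand, or 3.59-fold and 3.92-fold. At 20 to 49 IP reads the shares were 49 of 86 longer clusters (Wilson interval 46.4 to 66.9%) and 99 of 300 shorter ones (27.9 to 38.5%). Without the stretches on chromosomes 2 and 9 and the mitochondrial genome, described next, it was 8 of 43 longer clusters (9.74 to 32.6%). Outside those 3 places the share at this depth was thus no higher than in shorter clusters. At 50 to 199 IP reads the shares were 12 of 77 longer clusters, 3 of the 64 outside those places, and 19 of 600 shorter ones. At 200 to 999 IP reads 3 of 71 longer clusters were at IgG 0, all 3 on chromosome 2.

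**Figure D2:**
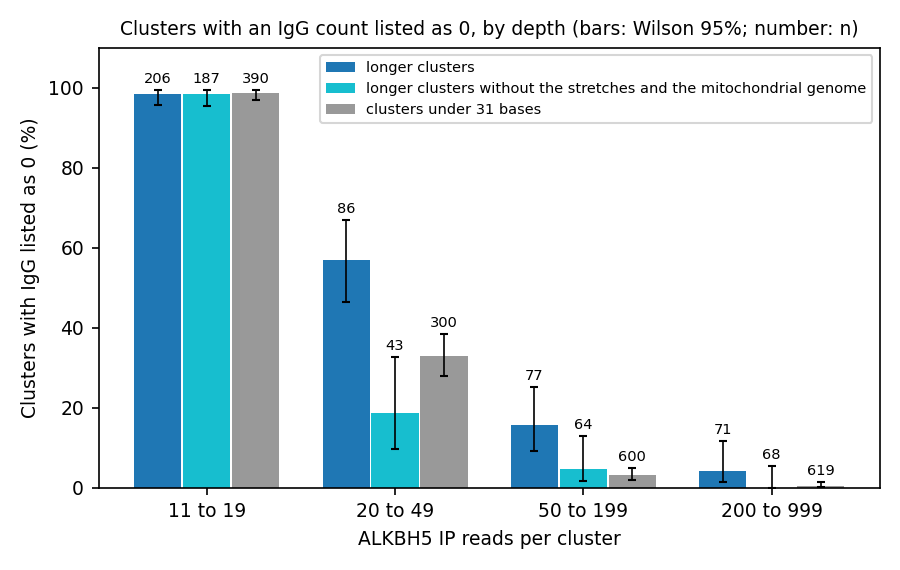
Share of clusters with an IgG count listed as 0 (y axis, percent) by IP reads per cluster (x axis) for longer clusters, longer clusters without the 2 stretches and the mitochondrial genome, and clusters under 31 bases; error bars are Wilson 95% intervals and numbers are clusters. At 20 to 49 IP reads the sets stand at 49 of 86, 8 of 43 and 99 of 300 clusters.

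The 362 longer clusters outside those 3 places held 44343 IP reads against 25016 of IgG, with a scaled ratio of sums of 1.74. IgG was listed as 0 in 195 of them (53.9%, Wilson interval 48.7 to 58.9%), and 169 of the 195 had 15 or fewer IP reads. Only 3 of the 195 had 50 or more, against 12 of the 72 clusters at IgG 0 in the 3 places.

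Among longer clusters with IgG reads, the ratio was lower where IP reads were higher. Its median was 3.23 at 20 to 49 IP reads (n = 37), 2.02 at 50 to 199 (n = 65) and 1.50 at 200 to 999 (n = 68). In clusters under 31 bases the medians were 3.54, 2.28 and 1.55. The lowest ratio listed for a longer cluster moved the same way, from 2.27 through 1.32 to 1.13. A cluster with few reads was thus listed only with a high ratio.

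By length, IgG was listed as 0 in 57 of 141 clusters of 31 to 49 bases, 135 of 175 of 50 to 99 bases, 63 of 100 of 100 to 199 bases and 12 of 24 of 200 bases or more. Median IP reads in these classes were 52, 14, 30 and 47.5, so the class with the fewest reads had the highest share. At 20 to 49 IP reads the counts were 2 of 15, 24 of 36, 17 of 27 and 6 of 8. These counts include the stretches named above and the mitochondrial genome. Without those places, IgG was listed as 0 in 8 of 43 longer clusters at this depth, against 49 of 86 with them. The length classes were not split in this way, so whether length itself moved the share was not tested.

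At the edge of the choice by reads, the last 5 clusters inside had 933 to 999 IP reads and the first 5 outside had 1001 to 1033. Of these 10, 7 were plus clusters of the X chromosome with ratios of 1.13 to 1.27. Inside, the others were the minus clusters chr1:24622524-24622952 with 933 IP and 111 IgG reads and chr9:63605511-63605547 with 945 and 517. Outside, the other was the plus cluster chr9:80247271-80247358 with 1001 and 857. At the edge by length, there were 13 clusters of 31 bases inside and 7 of 30 bases outside, with median IP reads of 68 and 183.

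The longer clusters lay on every chromosome and on the mitochondrial genome, with 59 on chromosome 9, 45 on chromosome 2 and 34 each on chromosomes 7 and 11. When neighbours no more than 20 kb apart were joined, on either strand, 275 clusters stayed single and 21 pairs formed. The remaining 123 formed 15 groups of at least 3. The largest groups were a stretch near the start of chromosome 9 with 39 clusters, a stretch of chromosome 2 with 22 and the mitochondrial genome with 17.

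Overlap with a listed cluster on the opposite strand, which the choice did not use, was found for 37 of the 440 (8.41%, Wilson interval 6.16 to 11.4%), against 1.48% of all listed clusters. Both partners of an overlap can be counted, so the 37 are not independent. Of them, 21 lay in the chromosome 2 stretch, 7 on the mitochondrial genome and 4 in the chromosome 9 stretch. Elsewhere there were 5, or 1.38% of 362 longer clusters. Of these 5, 3 lay together on chromosome 9 and 2 on chromosome 6. Length did enter the choice. Among other clusters of 31 bases or more, the share was 0% of 104 in the 10 loci and 1.86% of 161 with at least 1000 IP reads.

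The chromosome 2 stretch, chr2:98502390-98507460, had IgG listed as 0 in all 22 longer clusters. Their IP reads ran from 15 to 493 with a median of 42.5, and summed to 2062. Against 3 IgG reads per cluster the sum was at least 30.6-fold higher in the IP. Plus clusters held 55.2% of the IP reads, so both strands contributed. Of the 1687 bases covered, 55.3% were covered on both strands, and 21 of the 22 clusters overlapped one on the other strand.

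Reads of this stretch were concentrated at its right end. The minus cluster chr2:98507191-98507460 had 493 IP reads, an at least 161-fold difference. Opposite it on the plus strand lay chr2:98507066-98507191 with 350, touching it by its last base, and chr2:98507195-98507315 with 299. The next were the minus cluster chr2:98507060-98507167 with 170 and the plus cluster chr2:98506705-98506811 with 129. Together the 10 clusters from 98506394 onward held 1648 IP reads, at least 53.8-fold. The left part, 9 clusters in chr2:98502390-98503131, held 333 IP reads, at least 12.1-fold. Its pair of highest counts faced each other, with 67 on the minus strand from 98502390 and 64 on the plus strand from 98502396. Between the parts, 3 clusters in chr2:98505191-98505381 held 81 IP reads.

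The stretch near the start of chromosome 9, chr9:3000281-3036295, was mostly on 1 strand. Its 39 clusters had 11 to 136 IP reads each, with a median of 25, and IgG was listed as 0 in all 39. The sum of 1168 IP reads was at least 9.78-fold higher. The plus strand held 37 clusters and 97.0% of the IP reads. Of the 3132 bases covered, 4.79% were covered on both strands. The clusters covered 8.70% of the stretch, against 33.3% on chromosome 2.

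The highest counts of this stretch were on the plus strand. They were 136 IP reads at chr9:3000459-3000599, an at least 44.4-fold difference, 122 at chr9:3000894-3001009 and 79 at chr9:3024424-3024499. The next were 44 from 3020836, 39 from 3009981, 36 from 3014055, 35 from 3001354 and 34 from 3006716. Both minus clusters lay over high plus clusters. One, chr9:3000526-3000617 with 15 IP reads, overlapped the plus cluster with 136. The other, chr9:3024411-3024525 with 20, spanned the plus cluster with 79.

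Cluster lengths recurred on chromosome 9. Of the 39 clusters, 12 (30.8%) were 57 to 59 bases long, and 8 of these had exactly 58 bases and 21 to 39 IP reads. Of the 362 longer clusters outside the 3 places, 12 (3.31%) were 57 to 59 bases long, and in the chromosome 2 stretch 2 of 22 (9.09%). This length was singled out after the values were seen. Starts of neighbouring plus clusters were 210 to 260 bases apart in 7 of 36 cases. Over periods from 100 to 400 bases, the starts were most concentrated at 219 bases, with a mean resultant length of 0.431 on a scale from 0 to 1, and the ends at 268 bases (0.472). On chromosome 2 the best period was 117 bases for all starts (0.640) and for the 9 minus starts (0.811). It was 134 bases for plus starts (0.670) and 140 for all ends (0.403). The second-best periods came closer to each other on chromosome 2 only, at 134 bases for all starts (0.577) and 136 for all ends (0.395). On chromosome 9 they were 281 bases for all starts (0.395) and 215 for all ends (0.435). Whether the stretches are satellite repeats could not be read from the table, and the treatment of reads that match more than 1 place is not given in the sources used here.

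**Figure D3:**
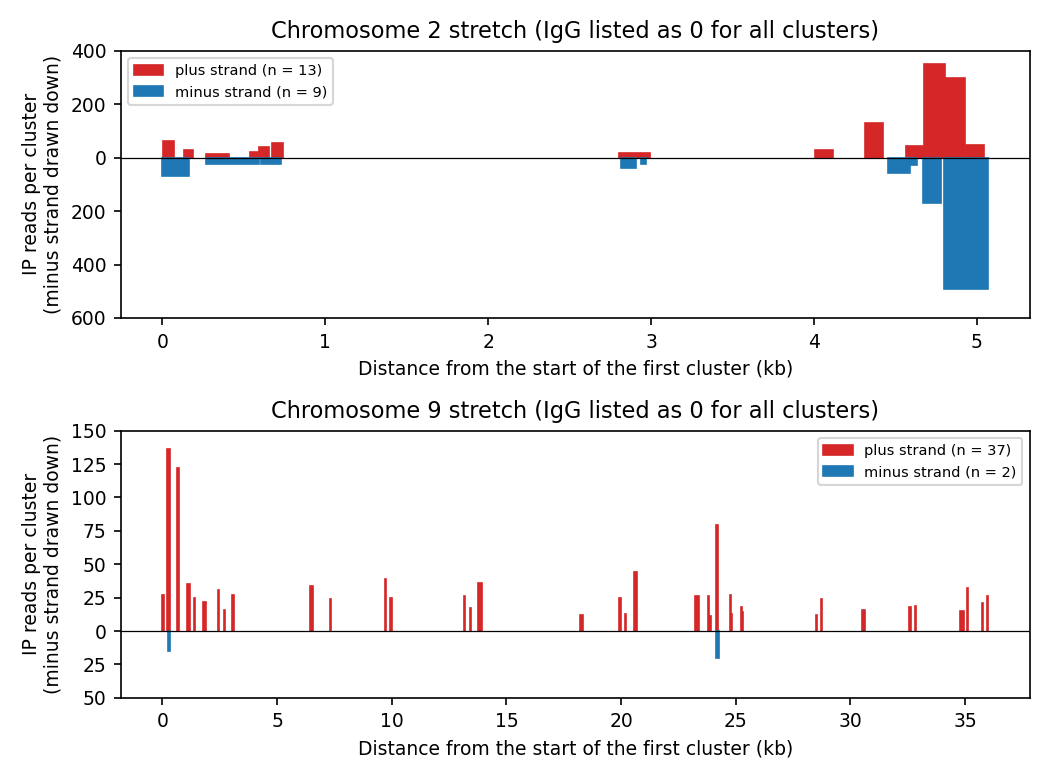
IP reads per longer cluster (y axis; plus strand up, minus strand down) by distance in kb (x axis) along the chromosome 2 and chromosome 9 stretches; IgG was listed as 0 for every cluster shown. On chromosome 2 the highest plus and minus clusters, with 350 and 493 reads, stand at the right end, and on chromosome 9 all but 2 of 39 clusters are on the plus strand.

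Near the start of chromosome 12, the single minus cluster chr12:3109893-3110049 had 130 IP reads and IgG listed as 0, an at least 42.5-fold difference. No listed cluster overlapped it on the plus strand.

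Both strands were seen at 2 further places, all with IgG listed as 0. At chr9:35112935-35113169 the plus cluster of 220 bases had 102 IP reads, an at least 33.3-fold difference. Under it lay minus clusters with 13 and 28 IP reads, and a listed minus cluster of 21 bases with 26. On chromosome 6 the plus cluster chr6:103599128-103599247 had 43 IP reads, and the minus cluster that spans it had 20. Only 2 other clusters outside the 3 places, beside the one on chromosome 12, had more than 30 IP reads at IgG 0. They were the minus clusters chr2:22443703-22443811 with 58 and chr6:145215109-145215327 with 37.

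The 17 longer clusters of the mitochondrial genome had a median length of 213 bases and held 646 IP and 117 IgG reads. The 6 plus clusters lie on the strand that is sense for most mitochondrial genes. Ordered by position, their IP counts were 44, 44, 51, 66, 71 and 21, and their IgG counts 16, 19, 17, 32, 26 and 0. Both libraries thus held RNA of this strand at 5 of the 6, with ratios of 2.02 to 2.94. The last one, MT:14437-14649, was at least 6.86-fold higher. With its zero set to 3, the ratio of sums was 2.58 (exact binomial interval 2.07 to 3.23). That value covers the 6 with fewer than 1000 IP reads, of 8 plus clusters listed. All 19 listed mitochondrial clusters, of both strands, held 17268 IP and 12706 IgG reads, with a scaled ratio of sums of 1.33.

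The 11 minus clusters held 349 IP reads against 7 of IgG, and IgG was listed as 0 in 10 of the 11. The exception had the most IP reads: MT:12978-13277 had 87 IP and 7 IgG reads, a 12.2-fold difference (5.67 to 31.2). Close to it, MT:12891-12944 had 49 IP reads and MT:12519-12669 had 13. Toward the start of the reference, MT:1773-2220 had 13, MT:2889-3016 had 26 and MT:3027-3092 had 43. Further on, MT:7541-7622 had 12 and MT:14944-15163 had 27. With zeros set to 3, the ratio of sums over the 11 was 9.24. It is a lower bound with regard to the unlisted IgG counts only, since 10 of the 11 were filled in. With the 7 listed IgG reads alone it was 48.9. The minus clusters had fewer IP reads per cluster, at a median of 27 against 47.5, but a higher sum, at 349 against 297. Few reads went with a high ratio throughout the list. The minus cluster with 87 IP reads had the highest count of all 17. Both strands are therefore given side by side, and their difference was not tested.

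Longer clusters of opposite strands overlapped each other at 3 places of the mitochondrial genome. At the first, the plus cluster MT:5809-5927 had 44 IP and 19 IgG reads, 2.27-fold (1.30 to 4.12), and the minus cluster MT:5736-5929 had 23 IP reads at IgG 0, at least 7.51-fold. At the next, the plus cluster MT:6265-6629 had 51 and 17, 2.94-fold (1.67 to 5.43), and the minus cluster MT:6273-6594 had 29 at IgG 0, at least 9.47-fold. At the last, the plus cluster MT:6634-6842 had 66 and 32, 2.02-fold (1.31 to 3.19), and the minus cluster MT:6639-6911 had 27 at IgG 0, at least 8.82-fold. In each case the plus strand had more reads in both libraries and the minus strand the higher fold. Depth moved with strand, at median IP reads of 47.5 on the plus and 27 on the minus strand, and its part in the difference was not tested.

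**Figure D4:**
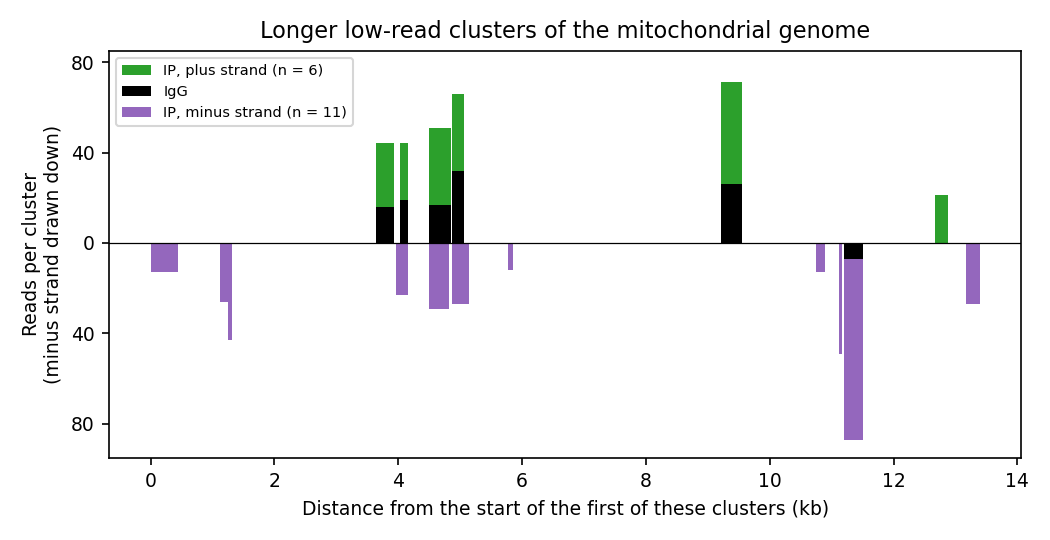
Reads per longer cluster of the mitochondrial genome (y axis; plus strand up, minus strand down) by distance in kb (x axis), with IgG reads drawn in black over the IP reads and bar width as cluster length. Black bars of 16 to 32 reads stand in 5 of 6 plus clusters, and one of 7 reads stands in 1 of 11 minus clusters.

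The other 12 groups held 45 clusters. The largest, chr12:99634675-99664157, had 5 minus clusters followed by 2 plus clusters. Their IP reads ran from 12 to 17 with IgG listed as 0 for all 7. The sum of 95 was at least 4.43-fold higher (2.74 to 7.49). In 3 further groups, of 3 clusters each, all minus clusters also lay left of all plus clusters. They were chr5:113758591-113778269, chr17:66540858-66560024 and chr7:77050462-77056361, with ratios of sums, zeros set to 3, of 3.22 (2.26 to 4.66), 3.43 (2.06 to 5.95) and 3.03 (1.83 to 5.22). Of the 15 groups, 7 had clusters on 1 strand and 4 were mixed. Whether any group gives rise to piRNAs was not tested.

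Among the groups on 1 strand, the 6 minus clusters of chr5:115292265-115301454 held 130 IP and 19 IgG reads, 4.11-fold with zeros set to 3 (2.76 to 6.29). The 4 plus clusters of chr14:24901667-24926579 held 80 and 14, 3.92-fold (2.38 to 6.76). With zeros filled in, the IgG sums behind these 2 intervals were 31 and 20, so the upper ends are no limits. The 4 plus clusters of chr10:62117382-62142174 held 49 IP reads at IgG 0. Minus groups of 3 at IgG 0 were chr15:59093060-59104910 with 38 IP reads, chr5:150610544-150621435 with 38 and chr9:54068235-54090226 with 37. Each of the last 3 was at least 4.03-fold higher, near the lowest fold listed at IgG 0. For the chromosome 9 group, at 4.03-fold, the interval was 1.91 to 9.49.

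The plus group chr12:55797780-55830692 had far more reads and a low ratio. Its 3 clusters had 473, 449 and 247 IP reads and 375, 369 and 192 IgG reads. Over these 3 the ratio of sums was 1.22 (1.12 to 1.34). The span held 4 listed clusters in all, with 2379 IP and 1873 IgG reads, and only these 3 were among the 440. Both libraries held this RNA at similar levels.

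Near-equal counts recurred at separate places. Among the 107 longer clusters with at least 100 IP reads, 19 pairs with another listed cluster of the same chromosome and strand differed by at most 10% in IP and in IgG reads and by at most 10 bases in length. Of these pairs, 12 were on the X chromosome. There, 8 plus clusters of 35 to 51 bases between 24235504 and 30026746 had 966 to 1057 IP and 782 to 869 IgG reads. Only 3 of the 8 had fewer than 1000 IP reads and so were among the 440. Of the 7 other pairs, 1 was less than 10 kb apart. It joined the plus clusters chr11:87236380-87236530 with 464 IP and 354 IgG reads and chr11:87240227-87240382 with 467 and 355.

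The highest ratios with IgG reads, ranked by the lower end of the interval, came mostly from single clusters under 100 bases. Most longer clusters were of that kind. Of the 173 with IgG reads, 84 had 31 to 49 bases and 40 had 50 to 99, and 275 of the 440 were single. The plus cluster chr16:94535093-94535123, as short as the rule allows, had 418 IP reads against 13 of IgG, 31.5-fold (18.2 to 59.7). Second was the minus cluster chr1:24622524-24622952 named above, 429 bases long, at 8.24-fold (6.76 to 10.1). Higher read counts narrowed the intervals of 3 plus clusters. They were chr15:30576766-30576803 with 456 and 78 reads, 5.73-fold (4.50 to 7.38), chr2:35150492-35150569 with 198 and 38, 5.11-fold (3.59 to 7.43), and chr15:82001603-82001670 with 456 and 116, 3.85-fold (3.14 to 4.76). Fewer reads stood behind the plus cluster chr16:18249017-18249061 with 66 and 9, 7.19-fold (3.56 to 16.4), and the minus cluster chr15:25294250-25294280 with 48 and 7, 6.72-fold (3.02 to 17.6).

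Another pair of the 10 highest lay beside abundant clusters of the same strand. The plus cluster chr12:55236167-55236214 had 59 IP and 5 IgG reads, 11.6-fold (4.68 to 36.9). It began at the base after a cluster with 18646 and 15603 reads, 1.17-fold (1.15 to 1.20). The minus cluster chrY:328161-328192 had 67 and 9 reads, 7.29-fold (3.62 to 16.6), and lay 6 bases from one with 10236 and 6374, 1.57-fold. In all, 7 longer clusters lay within 300 bases of a same-strand cluster with at least 1000 IP reads, and 6 of the 7 had the higher ratio. Another example in that direction was chr17:66798108-66798188 on the minus strand, with 203 and 51 reads, 3.90-fold (2.86 to 5.41), 155 bases from a cluster with 21846 and 19249, 1.11-fold. The opposite was seen at chr6:109729957-109729999 on the plus strand, 1.34-fold (1.16 to 1.56) next to 1.76-fold. Depth differed within each of these pairs, and its part was not tested.

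The 5 lowest ratios, scaled to the totals over both strands, were all on the plus strand and ran from 1.13 to 1.19. They belonged to chrX:25142466-25142514 with 966 IP and 841 IgG reads, chr4:133309150-133309181 with 625 and 538, chr14:104736210-104736276 with 426 and 359, chr8:55162612-55162643 with 702 and 588, and chrX:24235504-24235551 with 999 and 824. Each interval stayed above 1. The totals were 9837907 IP and 10563705 IgG reads on the plus strand and 21830938 and 20467640 on the minus strand. Scaling per strand would raise all plus ratios and lower all minus ones, so this strand pattern depends on the scale. With the median ratio of the whole list as the scale, 72 of the 173 with IgG reads, these 5 among them, fell below 1. By construction, this scale leaves as many of all listed clusters with IgG reads below 1 as above it.

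Of the 5 longest clusters, 4 were thinly covered. The minus cluster chr1:75506021-75506660, of 640 bases, had 18 IP reads, or 2.81 per 100 bases. The plus cluster chr3:98656288-98656750, of 463 bases, had 15, and beyond its right end lay the minus cluster chr3:98657049-98657198 with 20. IgG was listed as 0 for all 3. The others of the 5 longest were MT:1773-2220, MT:6265-6629 and, as the exception, the chromosome 1 cluster of 429 bases with its 933 IP reads, or 217 per 100 bases.

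In the authors' deposited table the z-scores of the 440 clusters had a median of 3.89 and reached 26.2, against a median of 4.49 over all listed clusters. In the authors' deposited table the p-value was 0.0001 or more for 220 of the 440 and for 31.4% of all listed clusters. Those p-values rest on 1 library per group.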

How the data were processed

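The authors deposited a table of clusters with raw read counts in the IP and the IgG library. Alignment used BWA 0.5.8 and the build NCBIM37, according to the submitters' processing notes. For cluster calling and the test, the sources used here name no tool or rule. In all 2964 clusters the deposited log2 fold change equals log2 of IP over IgG counts, with 0.5 for 0, within 1e-06. A further log2 column of the authors adds a constant per strand. Each deposited score (z-score) has a p-value and q-values by the authors; listed clusters pass p below 0.001, per the file headers.

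Library totals were found by solving the z-scores for them, with a largest difference of 2.55e-07. Ratios were scaled to the totals over both strands. Intervals are exact binomial (Clopper-Pearson, 95%) for ratios and Wilson for shares, which treat clusters as independent. For sums with zeros set to 3, the exact intervals count filled-in reads as observed. No molecular identifiers mark single molecules among the reads. No p-value was computed. Named clusters were those with the most IP reads at IgG 0 (10), the highest (10) and lowest (5) ratios, the longest (5), those at the edge of 1000 IP reads, all mitochondrial ones, up to 8 per stretch and the 10 largest other groups. Other clusters were named after their values were seen. Members, lists and rules were chosen with earlier results of these data known. The computation was tested on simulated data. Software was Python 3.11.15 with SciPy 1.17.1, NumPy 2.4.6, pandas 2.3.3 and, for plots, Matplotlib 3.10.9.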

Additional observations from a re-analysis of the deposited data

How the results depend on the processing

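No paired analysis was possible because there is a single IP and a single IgG library, and for the same reason neither could be left out. The count of 346 longer clusters reaching a ratio of 2 became 70 with at least 50 reads in both libraries together and 79 without clusters at IgG 0, an alternative chosen after seeing the data; both count fewer clusters. Other pseudocounts, scalings, length and read limits gave 255 to 353. The share at IgG 0, 60.7%, was 70.2% for clusters of at least 50 bases, 71.5% for those below 200 IP reads and 53.9% without the stretches and the mitochondrial genome. The median ratio of 1.94 became 1.08 when scaled to the median ratio of all listed clusters, which divides every ratio by 1.79, and 2.54 below 200 IP reads. With 3 IgG reads over a whole stretch in place of 3 per cluster, the folds were 673 on chromosome 2 and 381 on chromosome 9. The mitochondrial minus clusters, at their 7 IgG reads alone, had a ratio of 48.9. A gap of at most 5 kb gave 6 groups in place of 15. The best period on chromosome 2, 117 bases for starts, was 140 for ends and 134 for plus starts, and on chromosome 9 it was 219 for starts and 268 for ends; the cause was not tested. At few reads, low ratios were not detectable. Of the 40 alternatives run, these 14 moved a value beyond its interval (counts by over 1.5 times, the median by over 10%, periods by over 5 bases), and 26 did not; none reversed a direction.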
